A study of Homo sapiens with 38 samples.

Results

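The biguanides metformin, buformin and phenformin were each added to 2-deoxyglucose (2DG) in HT-1080 human fibrosarcoma cells, whose transcripts were read on Affymetrix U133 Plus 2.0 arrays. The group was defined by its labels, as the HT-1080 cultures that received 2DG together with a biguanide, and it held 3 of the 38 samples in the series. Metformin was given at 10 mM, buformin at 300 µM and phenformin at 100 µM, each for 18 h and each on 1 array. The dose of 2DG is not given in the sources used here. They were set against 3 arrays of HT-1080 cells given 2DG alone for 18 h. The cells carried mitochondrial DNA in every group compared here, and no array held a biguanide without 2DG. Every treated array is tied to a named control array in its description. All 3 biguanide arrays have control 3, while 2DG replicates 1, 2 and 3 have controls 2, 4 and 5. A further 3 arrays of 2DG with another agent served to show where the biguanides differ: rotenone (100 nM) and antimycin A (10 ng/ml), both with control 4, and versipelostatin (3 µM), with control 3. HT-1080 was a single line, and nothing in the labels says whether arrays of 1 group came from separate cultures on separate days, so the p-values reflect no more than the spread among these arrays, which may be technical.

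Biguanides are glucose-lowering drugs that share a pair of linked guanidine units and differ in the side chain: metformin carries a pair of methyl groups, buformin a butyl chain and phenformin a phenethyl chain. They enter mitochondria and slow complex I of the respiratory chain, which lowers ATP and activates the energy sensor AMPK. 2DG stands in for glucose, stalls glycolysis and is built wrongly into protein-bound sugar chains, so proteins misfold in the endoplasmic reticulum (ER). The ER sensors IRE1, PERK and ATF6 then start the unfolded protein response (UPR): XBP1 and ATF6 switch on chaperones and degradation factors, and PERK acts through ATF4 on amino acid and stress genes. Rotenone blocks complex I, antimycin A blocks complex III, and versipelostatin is known for holding back ER chaperones when glucose is scarce.

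The arrays were of like quality in the RNA degradation ratios but not in overall brightness. The 2% trimmed mean of the deposited signals was 93.9 to 101 on the biguanide arrays, 123 to 128 with 2DG alone and 125 to 137 on controls 2 to 5, and all arrays were scaled to a common value of 114. The ratio of 3′ to 5′ ACTB probe sets was 1.21 to 1.25 with a biguanide and 1.25 to 1.33 with 2DG alone. Log2 signals correlated across genes at r = 0.970 between metformin and buformin, 0.971 between metformin and phenformin and 0.981 between buformin and phenformin, against 0.965 to 0.983 within 2DG alone. Of 10 mesenchymal markers 8 reached the level of the filter, with VIM at 8370 to 14200 and SPARC at 1480 to 2840. Of 12 colon epithelial markers only KRT18 did, and none of the 6 haematopoietic markers with a probe set did. The summed signal of these lists was 21100 to 21700 with a biguanide and 12900 to 15900 with 2DG alone (mesenchymal), 2670 to 3510 and 1790 to 2030 (epithelial), and 77 to 103 and 51.6 to 59.5 (haematopoietic). EPCAM stayed at 1.14 to 8.38 and PTPRC at 0.756 to 20.7 on the 10 arrays. The part of brightness and of these sums in the results below was not tested.

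A large share of the 2DG profile differed between arrays with a biguanide and arrays with 2DG alone. These groups share no control array. An effect of the biguanides therefore cannot be told apart from whatever else set the arrays of control 3 apart. Of 11436 genes tested, 1014 (8.87%) were higher and 1772 (15.5%) lower with a biguanide and 2DG than with 2DG alone, each as a log2 change from its own control (adjusted p under 0.05, limma). Against its own control, the combination raised 1398 genes (12.2%) and lowered 2239 (19.6%), and 2DG alone raised 919 (8.04%) and lowered 760 (6.65%). These last comparisons share no array, and 290 genes rose in both and 214 fell in both. The 3 biguanide changes lay all above the 3 changes with 2DG alone for 2542 genes (22.2%) and all below for 3934 (34.4%). The split between directions depended on the scaling. Under the authors' own scaling 363 genes were higher and 3206 lower than with 2DG alone. Quantile normalization gave 814 and 1338, and centring each array on the median of all genes gave 2675 and 926. The median difference of all genes was -0.16 on the log2 scale with the common trimmed mean, -0.05 after quantile normalization, -0.50 in the deposited scaling and 0.28 with centring, so groups of genes are read against that median. The total against 2DG alone, 2786 genes, was 1603 without 2DG replicate 2, 1801 without replicate 1 and 1617 and 1823 without their controls 4 and 2. With no control block that total was 5179. The total of 1679 for 2DG alone was 430, 652 and 711 without replicates 2, 1 and 3, 439, 652 and 717 without their controls, and 2831 without the metformin array, which shares the estimate of spread.

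**Figure D1:**
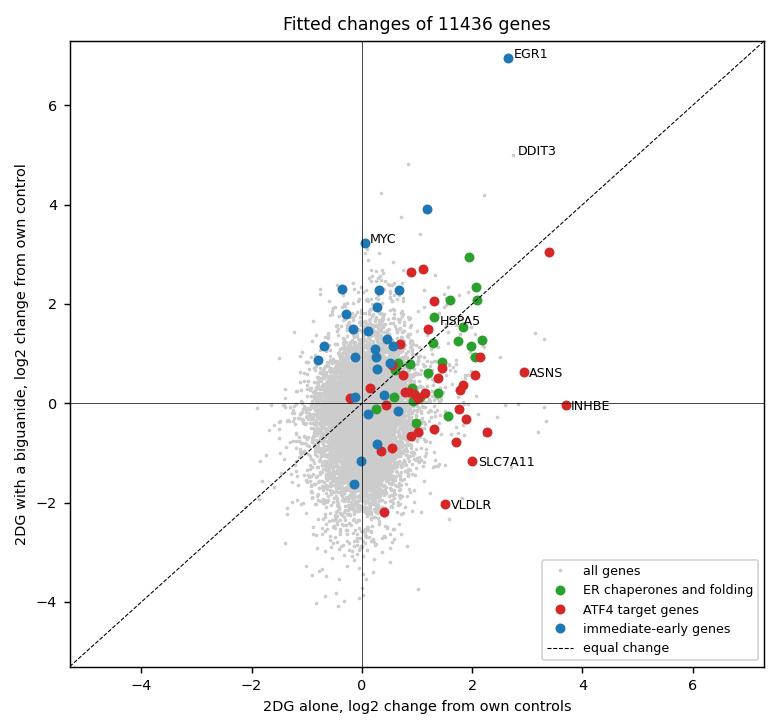
Fitted log2 change from own control of 11436 genes, with 2DG alone on the x axis and with 2DG and a biguanide on the y axis; 3 gene lists are coloured and the dashed line marks equal change. Most ER chaperones lie near or under the line, ATF4 targets such as ASNS (2.93 and 0.64) far under it, and EGR1 (2.65 and 6.95) and MYC (0.05 and 3.24) far above it.

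The ER chaperones are described first, because some of their promoters hold the best known UPR element. The ER stress element (ERSE, searched on both strands as CCAAT and CCACG with 9 bases between them) occurred in 0.0769% of 35116 RefSeq promoters (250 bases before to 50 after each gene's start, GRCh38.p14), and its variant ERSE-II (ATTGG and CCACG with 1 base between them) in 0.0541%. Of 22 measured ER chaperone and folding genes with a promoter, 7 held ERSE and 2 ERSE-II, and of 14 genes of ER-associated degradation (ERAD) only HERPUD1 held either, an ERSE-II. The stretches below are shown for 5 of the genes whose levels are followed through the comparisons, in capitals where the letters match, written on the strand of the gene.
HSPA5, chr9:125241379-125241421, minus strand, ERSE: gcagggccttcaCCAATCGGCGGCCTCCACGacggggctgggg
XBP1, chr22:28800591-28800633, minus strand, ERSE: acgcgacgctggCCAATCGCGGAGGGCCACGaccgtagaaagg
CRELD2, chr22:49918542-49918584, plus strand, ERSE in reverse: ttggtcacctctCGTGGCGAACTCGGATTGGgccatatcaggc
SDF2L1, chr22:21642102-21642136, plus strand, ERSE-II in reverse: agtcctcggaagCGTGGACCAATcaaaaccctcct
HERPUD1, chr16:56932013-56932047, plus strand, ERSE-II: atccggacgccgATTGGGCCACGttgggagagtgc
The matches begin 66, 52, 80, 188 and 117 bases before the start of these 5 genes. A match describes the letters in this window and not a bound site.

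ER chaperones and folding enzymes stayed induced when a biguanide was added, but several of them at a lower level. Against own controls, 17 of 24 measured members rose and none fell with a biguanide and 2DG (median log2 change 0.82, all genes -0.13), and 23 rose and none fell with 2DG alone (median 1.34, all genes 0.02). Of all genes 12.2% rose and 19.6% fell with a biguanide and 2DG, and 8.04% rose and 6.65% fell with 2DG alone. Set directly against 2DG alone, 2 members were higher and 9 lower (median -0.47, all genes -0.16), where 8.87% of all genes were higher and 15.5% lower. With each array centred on the median of all genes those counts were 5 higher and 2 lower, with the deposited scaling 0 and 12. Of the 10 chaperone and ERAD genes with an ERSE or ERSE-II, 9 rose with a biguanide and 2DG and 10 with 2DG alone, and against 2DG alone 1 was higher and 3 lower, over a range of -1.82 to 0.42.

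HSPA5, the main HSP70 chaperone of the ER lumen, gave scaled signals of 13796 with metformin, 13396 with buformin and 13852 with phenformin. With 2DG alone they were 10278, 9637 and 8880, and the controls lay between 3658 and 4245. All 6 treated arrays stood above every control, and the biguanide arrays above the 2DG arrays. HSPA5 rose by 1.73 with a biguanide and 2DG (SE 0.10, adjusted p = 5.58e-06). Its difference from 2DG alone was 0.42 (SE 0.12, adjusted p = 0.0267), but it was -0.06 with quantile normalization, 0.06 with the deposited scaling and -0.22 over the mean of its probe sets. That difference also lost the threshold with no filter, with no intensity trend, without the phenformin array, and without any 1 of the 2DG arrays or their controls. A second, dimmer HSPA5 probe set rose less with the biguanides (0.97, 1.43 and 1.48) than with 2DG alone (2.62, 2.16 and 1.71). HSP90B1, the HSP90 of the ER, had log2 changes of 2.00, 2.12 and 2.14 with metformin, buformin and phenformin and of 2.31, 2.06 and 1.89 with 2DG alone. The groups overlapped, and the difference was 0.00 (SE 0.16, adjusted p = 0.998).

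SDF2L1, a partner of the ER J-domain proteins, had signals of 1289, 1083 and 1227 with metformin, buformin and phenformin, of 1260, 1076 and 916 with 2DG alone, and of 231 on control 3. The rise from control was 2.34 with a biguanide (SE 0.15, adjusted p = 8.92e-06), and the difference from 2DG alone of 0.27 missed the threshold (adjusted p = 0.315), turning to -0.09 with the deposited scaling and passing at 0.70 with centring (adjusted p = 0.017). MANF, a secreted factor that binds HSPA5, rose by 2.07 and differed from 2DG alone by 0.47 (SE 0.16, adjusted p = 0.0501), or by 0.91 with centring (adjusted p = 0.0023). Over the alternatives and left-out arrays the MANF difference went as low as 0.05, with an adjusted p of up to 0.829. DNAJB9, an ER J-domain co-chaperone, rose by 2.94 and was 1.00 higher than with 2DG alone (SE 0.25, adjusted p = 0.0166). The DNAJB9 call was lost with the deposited scaling (0.64, adjusted p = 0.12), without 2DG replicate 2 (0.89), without 2DG replicate 3 (0.91) and without their controls. It was also lost with no intensity trend (adjusted p = 0.058).

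PDIA4, CRELD2 and FKBP14 were lower with a biguanide than with 2DG alone. PDIA4, a protein disulfide isomerase, had signals of 925, 1006 and 925 with metformin, buformin and phenformin against 2860, 2759 and 1964 with 2DG alone and 496 on control 3. Its difference was -1.12 (SE 0.18, adjusted p = 0.00229; -0.68 with centring), and no biguanide array reached a 2DG array. CRELD2, a secreted disulfide isomerase partner, had 607, 637 and 675 against 1837, 1652 and 1494, with 260 on control 3. CRELD2 still rose from its control by 1.28, and its difference from 2DG alone was -0.90 (SE 0.18, adjusted p = 0.00677), which lost the threshold when arrays were centred on the median of all genes (-0.46, adjusted p = 0.094) and was -1.37 with no control block. FKBP14, an ER prolyl isomerase active on collagen, had 158, 190 and 218 against 664, 425 and 374 and differed by -1.37 (adjusted p = 0.00602).

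Genes of ERAD, which carries misfolded proteins out of the ER to the proteasome, divided. None of 15 measured members was higher and 5 were lower than with 2DG alone (median -0.20, all genes -0.16), where 8.87% of all genes were higher and 15.5% lower. Against own control 7 rose and 4 fell with a biguanide and 2DG, beside 12.2% and 19.6% of all genes. With 2DG alone 10 rose and none fell, beside 8.04% and 6.65% of all genes. HERPUD1, the ERAD scaffold whose ERSE-II is shown above, had signals of 4822, 3355 and 3445 with metformin, buformin and phenformin against 2895, 2628 and 2244, and 809 on control 3. HERPUD1 rose by 2.23 (SE 0.25, adjusted p = 0.000206), with a difference from 2DG alone of 0.30 (adjusted p = 0.513) that was -0.12 with quantile normalization and -0.06 with the deposited scaling, and 0.57 with no control block (adjusted p = 0.017). EDEM3, a mannosidase that marks glycoproteins for disposal, went the other way, with 87, 82.9 and 68.7 against 643, 422 and 722, and 637 on control 3. Its 3 biguanide arrays lay far under every other array, and its difference was -2.88 (SE 0.26, adjusted p = 0.000284). EDEM1 differed by -1.61 (adjusted p = 0.00282), the segregase VCP by -1.10 (adjusted p = 0.00275; -0.67 with centring) and its membrane anchor FAF2 by -1.84 (adjusted p = 0.00733).

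Among 17 sensors and transcription factors of the UPR, 4 were higher and 1 was lower than with 2DG alone (median 0.05), against 8.87% and 15.5% of all genes. The balance turned with the scaling, with 1 higher and 3 lower in the deposited scaling, 2 and 0 after quantile normalization and 7 and 0 with centring, and was 1 and 0 with no intensity trend. XBP1, which is spliced by IRE1 into an active factor, had signals of 855, 954 and 820 with metformin, buformin and phenformin against 813, 602 and 597, with 245 on control 3. It rose by 1.81 with a biguanide, and its difference of 0.41 missed the threshold (adjusted p = 0.194) but passed it with no control block (0.40, adjusted p = 0.041) and with centring (0.84, adjusted p = 0.014). In other settings the XBP1 difference went as low as 0.045, with an adjusted p of up to 0.908. The array does not separate spliced from unspliced XBP1. ATF4, the factor made when PERK slows translation, rose by 1.05 with a biguanide (adjusted p = 0.00019) and by 0.84 with 2DG alone (adjusted p = 0.00019). Its difference was 0.21 (adjusted p = 0.318), with -0.25 under quantile normalization, -0.16 with the deposited scaling and 0.64 with centring (adjusted p = 0.0094). These are transcript levels, and ATF4 is known to be set mainly by translation.

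DDIT3 and ATF3, transcription factors that act below ATF4, had higher signals on each biguanide array than on any array of 2DG alone. DDIT3 (CHOP) had signals of 1963, 1458 and 1450 with metformin, buformin and phenformin, of 762, 789 and 122 with 2DG alone, and of 44.8 on control 3. 2DG replicate 3 was far below the other two. DDIT3 rose by 5.00 from control (SE 0.65, adjusted p = 0.000452), a 31.9-fold change, and its difference from 2DG alone was 2.26 (SE 0.80, adjusted p = 0.0636). It passed the threshold without 2DG replicate 1 or its control 2 (3.01, adjusted p = 0.023 and 0.022), with centring (2.70, adjusted p = 0.027) and with no control block (1.92, adjusted p = 0.00903), and was 1.32 without 2DG replicate 3 (adjusted p = 0.054). ATF3 had 2844, 1775 and 1984 against 350, 261 and 131, with 138 on control 3. ATF3 was 2.73 higher than with 2DG alone (SE 0.35, adjusted p = 0.00102), and its other probe sets were higher as well, by 2.40 and 3.26. CEBPG, a dimer partner of ATF4, was 0.77 higher (adjusted p = 0.0339), but the mean of its probe sets gave -0.32 and the deposited scaling 0.41 (adjusted p = 0.26). The CEBPG call was also lost with no intensity trend (adjusted p = 0.078), without the phenformin array and without 2DG replicate 2 or 3 or their controls.

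ATF4 target genes were the list that parted most from 2DG alone in the downward direction by its median. Of 36 measured members 18 were lower and 4 higher (median -1.07, all genes -0.16), where 15.5% of all genes were lower and 8.87% higher. The lower count was 22 with quantile normalization, 23 with the deposited scaling, 15 with centring on the median of all genes and 24 with no control block. With 2DG alone 29 members rose and none fell against own controls (median 1.16), while with a biguanide and 2DG 10 rose and 6 fell (median 0.22). Of all genes 8.04% rose and 6.65% fell with 2DG alone, and 12.2% rose and 19.6% fell with the combination. ATF4 acts with C/EBP partners at CARE elements. The core TTGCATCA, searched on both strands, occurred in 0.866% of all promoters, in 6 of 29 ATF4 targets with a promoter and in 5 of 14 aminoacyl-tRNA synthetases. Of these 11 genes 9 rose with 2DG alone and 1 with a biguanide and 2DG, and 4 were lower and none higher than with 2DG alone (range -2.85 to 0.33). In the whole lists, 10 of 36 ATF4 targets and 5 of 17 synthetases rose with a biguanide and 2DG. There 18 targets and 3 synthetases were lower than with 2DG alone, and 4 and 1 higher. Whether genes with the core differ from the rest of their lists was not tested. HERPUD1 of ERAD, described above, also holds the core and is not among the 11. CHAC1 is shown as the member of the 11 with the largest fall, its match beginning 209 bases before the gene's start.
CHAC1, chr15:40953250-40953281, plus strand, CARE: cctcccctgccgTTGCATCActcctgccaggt

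ASNS, which makes asparagine, had signals of 971, 853 and 968 with metformin, buformin and phenformin. With 2DG alone they were 4971, 3813 and 3640, and control 3 was at 596. The biguanide arrays lay close together, above control 3 and under all arrays with 2DG alone. ASNS, relative to own controls, was 4.92-fold lower than with 2DG alone (log2 difference -2.30, SE 0.21, adjusted p = 0.000292). It rose from its control by 0.64 (adjusted p = 0.0185), where the rise with 2DG alone was 2.93, and that smaller rise lost the threshold with the deposited scaling (0.24, adjusted p = 0.29). SLC7A11, the cystine importer, had 261, 286 and 267 against 1546, 1550 and 1831, with 617 on control 3. The biguanide arrays were under their control and the 2DG arrays above theirs. SLC7A11 fell by 1.17 from control with a biguanide (adjusted p = 0.000311). Relative to own controls it was 9.01-fold lower than with 2DG alone (log2 difference -3.17, SE 0.17, adjusted p = 1.38e-05), which is more than the ratio of the signals. Over the alternatives and left-out arrays the difference lay between -3.53 and -2.48.

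Signals of INHBE, a secreted activin subunit, were 15.6, 13.3 and 14.1 with metformin, buformin and phenformin, 424, 366 and 261 with 2DG alone, and 14.7 on control 3. The biguanide arrays were at the level of the control, and the log2 difference was -3.72 (SE 0.61, adjusted p = 0.00264). VLDLR, a lipoprotein receptor, had 18.4, 31.7 and 26.3 against 213, 243 and 228, with 119 on control 3, and differed by -3.53 (SE 0.36, adjusted p = 0.000483). CHAC1, which degrades glutathione, had 35.5, 16.6 and 13.5 against 205, 216 and 84.8, with 33 on control 3. The CHAC1 difference was -2.85 (SE 0.66, adjusted p = 0.012). The biguanide signals of INHBE, VLDLR and CHAC1 lay under the level of the filter, where the size of a difference depends on the offset. DDIT4, an inhibitor of mTORC1, differed by -2.20 (adjusted p = 0.00571). TRIB3, a pseudokinase that restrains ATF4 and CHOP, had 1071, 908 and 1144 against 2897, 3302 and 2894, with 541 on control 3. TRIB3 kept a rise of 0.93 from control (adjusted p = 0.00326; 0.53 and adjusted p = 0.055 with the deposited scaling) and was -1.22 from 2DG alone (adjusted p = 0.00402; -0.78 with centring).

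Not all targets of ATF4 were lower. SLC3A2, the heavy chain of several amino acid exchangers including that of SLC7A11, had signals of 2011, 2505 and 2522 with metformin, buformin and phenformin against 3003, 3336 and 2281, with 276 on control 3. SLC3A2 rose by 3.06 (adjusted p = 5.53e-06), and its difference from 2DG alone was -0.34 (adjusted p = 0.258), 0.10 when arrays were centred on the median of all genes and -0.68 with quantile normalization (adjusted p = 0.043). GDF15, a secreted stress cytokine, had 4431, 3944 and 3810 against 1820, 1295 and 718, with 617 on control 3. The biguanide arrays were all above the 2DG arrays, and GDF15 was 1.60 higher (SE 0.16, adjusted p = 0.000466), although over the mean of its probe sets, one of them dim, the difference was 0.43 (adjusted p = 0.54). PPP1R15A (GADD34), which directs the phosphatase that reverses PERK's mark on eIF2α, had 2333, 2572 and 2867 against 489, 690 and 587, with 410 on control 3. It was 1.74 higher than with 2DG alone (SE 0.22, adjusted p = 0.000989). SESN2, a stress-induced brake on mTORC1, was 0.75 higher (adjusted p = 0.0205), a call lost with the deposited scaling (0.39) and over the mean of its probe sets (0.21). The SESN2 call was also lost with no intensity trend (adjusted p = 0.053), without the phenformin array, without any 1 of the arrays of 2DG alone and without control 2. A fit of all 38 arrays left the differences as they were but ended the calls against 2DG alone of HSPA5, DNAJB9, CRELD2, FKBP14, CEBPG, CHAC1, DDIT4, TRIB3, GDF15, SESN2, DNAJB1, HSPH1 and WIPI1 and the rises from control of ASNS and TRIB3 (adjusted p from 0.0616 for GDF15 to 0.39 for SESN2).

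**Figure D2:**
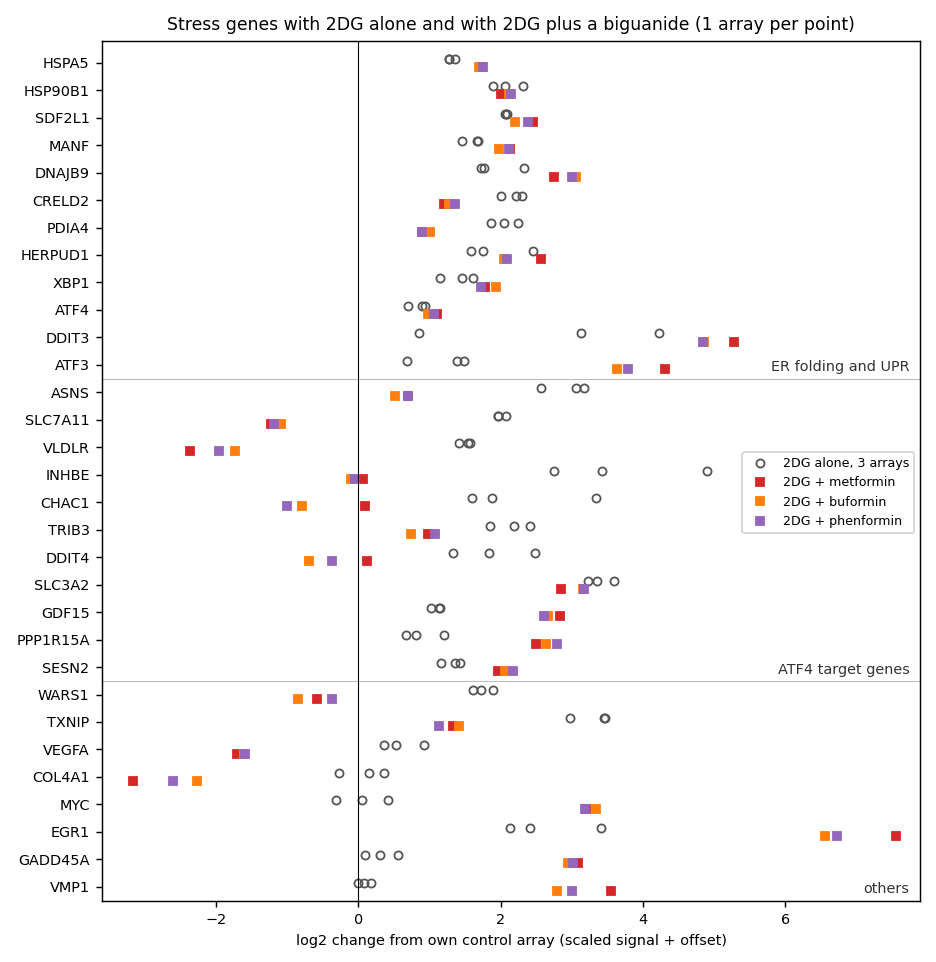
Log2 change from own control (x axis) of stress genes on single arrays, with open circles for the 3 arrays of 2DG alone and filled squares for 2DG with metformin, buformin and phenformin. HSP90B1 overlaps between the groups (1.89 to 2.31 and 2.00 to 2.14), ASNS and SLC7A11 separate downward with a biguanide, and ATF3, MYC and EGR1 separate upward.

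The aminoacyl-tRNA synthetases, which load amino acids onto tRNA, showed 1 member higher and 3 lower of 17 (median -0.22, all genes -0.16), shares close to the 8.87% and 15.5% of all genes, but 0 and 11 with either quantile normalization or the deposited scaling. WARS1, the tryptophan enzyme, had signals of 423, 353 and 491 with metformin, buformin and phenformin against 1783, 1708 and 1688, with 638 on control 3, and differed by -2.35 (SE 0.22, adjusted p = 0.00033). AARS1, the alanine enzyme, differed by -0.84 (adjusted p = 0.00734) and lost the threshold when arrays were centred (-0.40, adjusted p = 0.13). Of 7 measured genes of the glucose sensor MondoA and its targets, none was higher and 2 were lower (median -0.65). TXNIP, which limits glucose uptake, had 161, 172 and 140 against 624, 654 and 579, with 60.9 on control 3. TXNIP rose by 1.29 from control with a biguanide and by 3.30 with 2DG alone, and the difference was -2.00 (SE 0.28, adjusted p = 0.00151).

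Immediate-early genes, the first transcription factors and feedback genes switched on by growth factor and stress kinases, were the list with the highest median in the comparison. Of 26 measured members, ATF3 among them, 12 were higher and 2 lower than with 2DG alone (median 0.96, all genes -0.16), beside 8.87% and 15.5% of all genes. The member counts were 10 and 1 under quantile normalization, 9 and 3 with the deposited scaling and 14 and 0 with centring. EGR1 is the 1 of 19 members with a promoter whose window holds the CArG box of the serum response element in its form with ATATTA between CC and GG (both strands searched, 0.0342% of all promoters), beginning 105 bases before its start.
EGR1, chr5:138465362-138465395, plus strand, CArG box: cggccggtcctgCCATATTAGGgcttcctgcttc

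EGR1, a zinc finger factor of this class, had signals of 9189 with metformin, 4584 with buformin and 5192 with phenformin. With 2DG alone they were 355, 245 and 188, and control 3 was at 43.1. EGR1 was highest on the metformin array and at least an order of magnitude above 2DG alone on each biguanide array. The rise from control was 6.95 (SE 0.40, adjusted p = 5.58e-06), and the difference from 2DG alone was 4.30 (SE 0.49, adjusted p = 0.00064), a 19.7-fold change. Its other probe sets differed by 7.28 and 3.96. MYC, a driver of growth and ribosome synthesis, had 4962, 5478 and 4924 against 608, 665 and 436, with 537 on control 3. Arrays with 2DG alone were near the level of the controls (499 to 586), and those with a biguanide, relative to own controls, were 9.11-fold higher (log2 difference 3.19, SE 0.22, adjusted p = 5.9e-05). CCN2, a target of the YAP coactivator, differed by 2.67 (adjusted p = 0.000487), DUSP5, a phosphatase of ERK, by 1.60 (adjusted p = 0.000495) and FOSL1, an AP-1 subunit, by 1.35 (adjusted p = 0.00059).

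Further large rises lay outside the groups above. GADD45A, a p53-induced gene of growth arrest, had signals of 8655, 7848 and 8234 with metformin, buformin and phenformin against 1195, 1318 and 1103, with 1010 on control 3. It was, relative to own controls, 6.51-fold higher than with 2DG alone (log2 difference 2.70, SE 0.17, adjusted p = 5.3e-05). CITED2, a coactivator that competes with HIF for p300, had 1626, 1896 and 2327 against 139, 229 and 180, with 137 on control 3, and differed by 3.05 (adjusted p = 0.000481). VMP1, an ER membrane protein needed for autophagosomes, had 1332, 783 and 902 against 132, 84.2 and 110, with 108 on control 3. Its 2DG arrays were at the control level, and the difference was 3.03 (SE 0.33, adjusted p = 0.00059). SPRY2, a feedback inhibitor of receptor signalling, differed by 2.98 (adjusted p = 0.00047), and ZNF460, a zinc finger gene, by 3.88 (adjusted p = 0.000556), with a signal of 4.51 on control 3 against 13.4 to 20.3 on controls 2, 4 and 5. SNAI2, a mesenchymal transcription factor, was 1.89 higher (adjusted p = 0.00406). Measured against control alone, SAT1, which acetylates polyamines, rose by 3.40 (adjusted p = 1.89e-05) and MMP3, a matrix protease, by 4.19 (adjusted p = 0.000206).

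For 3 of the most extreme differences the call turned on control 3. UTS2R had 13.2 on control 3 and 76.4 to 97.9 on controls 2, 4 and 5, and its difference of 3.06 became 0.80 with no control block (adjusted p = 0.20). For ADAMTS10 control 3 was at 7.87 and the others at 44 to 68.7, and 2.96 became 0.77 (adjusted p = 0.28). DEPP1 was at 116 on control 3 and at 3.14 to 14.6 on the others, and its difference of -4.75 became -1.71 (adjusted p = 0.14). CREB5, with a difference of 3.97, was another case to set aside, since 2 further probe sets of the gene differed by -1.40 and -1.60, the gene stood at -1.73 with a lower offset and at -1.93 with the deposited scaling, and control 3 read 5.11 against 26.5 to 39.1 on the others.

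TIMM21, TRA2B, HNRNPH3 and RNF145 were among the 10 largest falls from control 3, and all of them were lower than with 2DG alone as well. TIMM21, a subunit of the inner membrane import machinery of mitochondria, had signals of 76.8, 82 and 72.7 with metformin, buformin and phenformin. With 2DG alone they were 1045, 883 and 908, and control 3 was at 1406. Its biguanide arrays, relative to own controls, were 12.6-fold lower than 2DG alone (log2 difference -3.65, SE 0.19, adjusted p = 1.32e-05). TRA2B, a splicing regulator, had 346, 353 and 305 against 3353, 3021 and 3345, with 4815 on control 3, and differed by -3.35 (SE 0.16, adjusted p = 8.86e-06). The other TRA2B probe sets past the filter differed less, by -0.61 and -0.64, and the mean of the gene's probe sets was -1.53 (adjusted p = 0.0073). HNRNPH3, an RNA-binding protein, differed by -3.21 (adjusted p = 5.3e-05), and RNF145, an ER ubiquitin ligase of sterol sensing, by -3.18 (adjusted p = 0.00033). Another RNF145 probe set past the filter differed by 0.80, and their mean by -1.19 (adjusted p = 0.011). Among the largest differences below 2DG alone, SIX4, a homeobox factor, stood at -3.88 (adjusted p = 0.000487), PPP1R10, a nuclear subunit of phosphatase PP1, at -3.87 (adjusted p = 0.0028), and CYP2R1, which hydroxylates vitamin D, at -3.70 (adjusted p = 0.000696). In these last genes the biguanide signals were 1.4 to 17, under the level of the filter, where the size of a fold depends on the offset. With a higher offset SIX4 was at -2.56 and CYP2R1 at -2.23.

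Part of the hypoxia-induced genes and of the collagens were lower with a biguanide than with 2DG alone. Of 16 measured hypoxia genes 7 were lower and 1 higher (median -1.0, all genes -0.16), beside 15.5% and 8.87% of all genes. With 2DG alone 9 rose and none fell against own controls, beside 8.04% and 6.65% of all genes. With no control block the hypoxia median was -0.38. VEGFA, the angiogenic factor, had signals of 257, 276 and 279 with metformin, buformin and phenformin against 1120, 1490 and 1119, with 855 on control 3. Biguanide arrays were below their control and 2DG arrays above theirs, and VEGFA differed by -2.24 (SE 0.21, adjusted p = 0.000305), or -1.06 over the mean of its probe sets (adjusted p = 0.012). LOX, which crosslinks collagen, had 330, 371 and 345 against 450, 853 and 660, with 350 on control 3 and 155 to 208 on the others, and differed by -1.85 (adjusted p = 0.00245), or -0.85 with no control block (adjusted p = 0.022). EGLN1, the oxygen sensor that marks HIF, differed by -2.04 (adjusted p = 0.00187). HILPDA, a lipid droplet protein, fell by 3.98 from control (adjusted p = 0.00147). Of 18 collagens and collagen-modifying enzymes none was higher and 10 were lower (median -0.94), with 10 and 12 lower under quantile normalization and the deposited scaling. COL4A1, a basement membrane collagen, had 135, 257 and 202 against 822, 1223 and 1163, with 1260 on control 3, and differed by -2.76 (SE 0.36, adjusted p = 0.00104).

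Many cell cycle genes fell with 2DG alone, and a part of them stood higher with a biguanide. Of all genes 6.65% fell with 2DG alone and 19.6% with a biguanide and 2DG. In the direct comparison 8.87% of all genes were higher and 15.5% lower (median -0.16). Of 24 genes of mitosis and G2/M, 23 fell with 2DG alone (median -0.95) and 4 with a biguanide and 2DG (median -0.16), and 13 were higher and none lower in the direct comparison (median 0.75). The higher count was 10 with quantile normalization and 5 with the deposited scaling. Of 23 genes of DNA replication and G1/S, 14 fell with 2DG alone, and 9 were higher and none lower in the direct comparison (median 0.51), but 1 higher and 2 lower with the deposited scaling. RRM2, a subunit of ribonucleotide reductase, had signals of 5952, 5157 and 5331 with metformin, buformin and phenformin against 2375, 1637 and 1728, with 4552 on control 3. Its 2DG arrays were the low ones, under every biguanide array, and the difference was 1.37 (SE 0.15, adjusted p = 0.000591). UBE2C, an E2 enzyme of mitotic exit, differed by 1.18 (adjusted p = 0.00321) and TPX2, a spindle assembly factor, by 1.07 (adjusted p = 0.00375).

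Many transcripts for the respiratory chain were higher with a biguanide than with 2DG alone, but their number depended on the scaling. Of all genes 8.87% were higher and 15.5% lower (median -0.16). For complex I, the site of biguanide action, 15 of 34 measured subunits were higher and none lower (median 0.44), with 5 and 2 under quantile normalization and 3 and 1 with the deposited scaling. For complexes II to V 21 of 34 were higher and none lower (median 0.53), with 3 and 0 and 6 and 0 under the same settings. NDUFS3, a core subunit of complex I, had signals of 2252, 1964 and 2130 with metformin, buformin and phenformin against 1177, 1196 and 1246, with 1368 on control 3, and differed by 0.92 (SE 0.17, adjusted p = 0.00435; 0.56 in the deposited scaling). UQCR10 of complex III differed by 1.05 (adjusted p = 0.00321; 0.71 and adjusted p = 0.06 over the mean of its probe sets) and ATP5MC3 of the ATP synthase by 0.89 (adjusted p = 0.0031; 0.48 after quantile normalization). Of 7 measured transcripts of mitochondrial DNA 1 was higher and none lower, too few to set apart from the shares of all genes. Ribosomal proteins moved in a similar way, with 13 of 43 higher (median 0.42) but 1 with quantile normalization, and cytosolic heat shock genes with 8 of 12 higher (median 0.53) but 2. Among the heat shock genes, DNAJB1, a J-domain partner of HSP70, differed by 1.39 (adjusted p = 0.00348) and HSPH1, its nucleotide exchange factor, by 0.99 (adjusted p = 0.00324; 0.63 after quantile normalization).

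Of 24 regulators of AMPK and mTORC1, the energy and nutrient sensing kinases, 3 were higher and 8 lower than with 2DG alone (median -0.58), where 8.87% of all genes were higher and 15.5% lower. Those counts were 2 and 3 under quantile normalization. Besides DDIT4 and SESN2, given above, FNIP2, a partner of folliculin, differed by -1.73 (adjusted p = 0.00206) and SESN1, the p53-induced sestrin, by -1.40 (adjusted p = 0.00662). Of 9 transporters known to carry biguanides only SLC22A4 and SLC22A5 passed the filter, and neither was called in any comparison. In glycolysis and glucose uptake 1 of 25 genes was higher and 1 lower (median 0.29), with 1 and 5 under the deposited scaling and 15 and 1 with centring. The lower one was PFKFB4, which makes the activator of phosphofructokinase, with signals of 88.6, 81 and 93.1 against 236, 311 and 250 and a difference of -2.05 (adjusted p = 0.00101).

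The counts of the remaining lists are read against the same 8.87% higher and 15.5% lower of all genes. In cholesterol and fatty acid synthesis 3 of 21 were higher and 3 lower, among them HMGCS1, an early enzyme of cholesterol synthesis, at 2.16 (adjusted p = 0.00107) and ELOVL6, a fatty acid elongase, at -1.96 (adjusted p = 0.00177). In N-glycosylation and the hexosamine pathway 2 of 21 were higher and 5 lower. UAP1, which makes the sugar donor UDP-GlcNAc, differed by 1.22 (adjusted p = 0.00371), ALG2, a mannosyltransferase of the lipid-linked sugar, by -1.54 (adjusted p = 0.000792), and STT3A, the catalytic subunit that transfers it to protein, by -1.40 (adjusted p = 0.00254). In mitochondrial chaperones and proteases 3 of 12 were higher, and 1, LONP1, was lower at -1.11 (adjusted p = 0.00174; -0.67 with centring). In autophagy and lysosome 2 of 22 were higher and 4 lower, with WIPI1, an early autophagy factor, at -1.84 (adjusted p = 0.00264). NRF2 antioxidant genes had 1 of 15 higher and 2 lower, and p53 targets 4 of 14 higher and 3 lower. In the BCL2 family and death receptors 4 of 15 were higher and 3 lower, with PMAIP1 (NOXA), a killer protein of the family, at 1.56 (adjusted p = 0.00507), or 0.83 over the mean of its probe sets (adjusted p = 0.089).

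**Figure D3:**
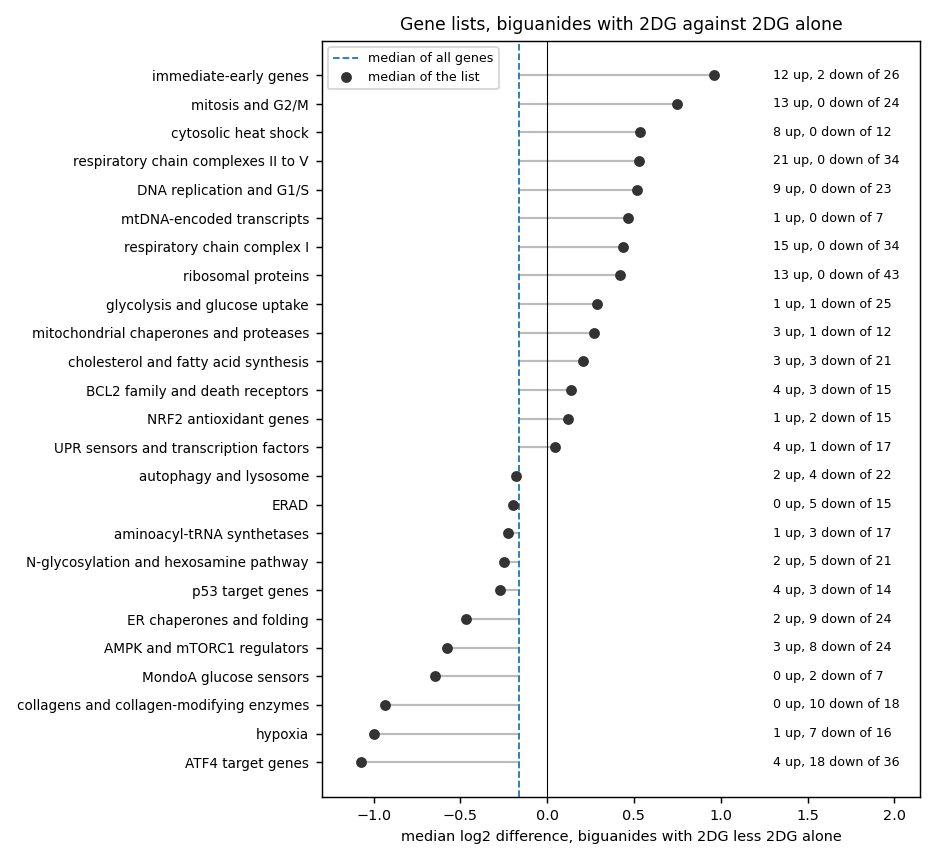
Median log2 difference between biguanides with 2DG and 2DG alone (x axis) for each gene list, with the dashed line at the median of all genes (-0.16) and, at the right, the members past the threshold of those measured. ATF4 targets (-1.07), hypoxia genes (-1.0) and collagens (-0.94) lie at the low end, and mitosis (0.75) and immediate-early genes (0.96) at the high end.

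Values of the 3 compounds are given side by side, because 10 mM metformin, 300 µM buformin and 100 µM phenformin are not matched doses, so that no pair of compounds was compared and no test was run between them. The log2 signals had a range over 1 log2 unit among the 3 biguanide arrays for 1512 of 11436 genes (13.2%). Among the 3 arrays with 2DG alone they did for 1284 (11.2%). The median SD over genes was 0.22 among the biguanides and 0.23 with 2DG alone. Both spreads are of signals, so no control array enters them, and that of the biguanides also holds any difference between the compounds. The list medians were close: for ER chaperones 0.74, 0.92 and 0.85 with metformin, buformin and phenformin, for ATF4 targets 0.23, 0.08 and 0.24, for immediate-early genes 1.32, 1.09 and 0.98, and for mitosis 0.02, -0.24 and -0.22.

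The genes given here had the widest spread among the compounds of those with a bright signal on a biguanide array or control 3. FADD, the adaptor of death receptors, was among the widest of these. Its changes were -2.23, -3.87 and -5.03 with metformin, buformin and phenformin (signals 141, 41.5 and 15.3), against signals of 683 on control 3 and 529 to 647 with 2DG alone. It was lower with each biguanide than on any array of 2DG alone, with a difference of -3.71 (SE 0.91, adjusted p = 0.0152). That call was lost without 2DG replicate 2 or its control (-3.55, adjusted p = 0.052) and with no intensity trend (adjusted p = 0.068). On the metformin array TSC22D2, a stress-response gene, changed by -0.18, against 1.69 with buformin and 1.63 with phenformin. The noncoding RNA NORAD changed by -4.41, -2.61 and -2.94, and the histone gene H2AX by -1.23, -2.76 and -2.70. ID3, an inhibitor of bHLH factors, changed by 0.50, -0.91 and -1.22, within the range of 2DG alone (-2.90 to -0.27) for the last pair. These genes were chosen for their spread, and with 1 array for each compound it has no replicate check.

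Few genes told the biguanides from rotenone and antimycin A under 2DG in the fit with control blocks, and 342 did with no block (148 higher, 194 lower). In the blocked fit of 11436 genes, 4 were higher (0.035%) and 1 lower (0.00874%) with the biguanides (816 at an unadjusted p under 0.05), with few arrays on either side. The total of 5 was 52 without the rotenone array, 9 without antimycin A, 2 without phenformin or 2DG replicate 2, 3 without 2DG replicate 1 or 3 or their controls, and 0 without control 4. Those higher were SDF2L1, MANF and CRELD2, all of the ER, and TMEM50B. SDF2L1 signals were 207 with rotenone and 198 with antimycin A, at the level of control 4 (254), while the biguanide arrays stood at 1083 to 1289. The difference of log2 changes was 2.65 (SE 0.22, adjusted p = 0.00113). MANF had 1252 and 1291 with rotenone and antimycin A against 3391 to 3777 with a biguanide, and differed by 1.58 (SE 0.19, adjusted p = 0.0114). CRELD2 had 291 and 332 against 607 to 675 and differed by 1.58 (SE 0.23, adjusted p = 0.049), and HSP90B1 differed by 1.3 (adjusted p = 0.052; 1.24 and adjusted p = 0.028 without the rotenone array). TMEM50B, a membrane protein, differed by 2.52 (adjusted p = 0.00148), but by 0.905 over the mean of its probe sets (adjusted p = 0.61). The gene lower was TRA2B, at -1.46 (adjusted p = 0.0232), or -0.49 over the mean of its probe sets (adjusted p = 0.82).

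EGR1, MYC and ASNS are given as members of the groups above that were not separated from these inhibitors. EGR1 was at 3930 and 3601 with rotenone and antimycin A, MYC at 6418 and 4447, and ASNS at 601 and 808. Their differences from the biguanides were 0.01 (SE 0.52) for EGR1, 0.01 (SE 0.30) for MYC and 0.33 (SE 0.28) for ASNS, and none passed the threshold, which does not show that the agents act alike. HERPUD1, at 869 and 597 with rotenone and antimycin A, had a difference of 2.25 (SE 0.38, adjusted p = 0.137), which passed without the rotenone array (2.52, adjusted p = 0.027). With no control block HERPUD1 (2.40), HSP90B1 (1.48), XBP1 (1.59) and HSPA5 (0.59) all passed. Rotenone and antimycin A lie in the block of control 4 and the biguanides in that of control 3. Without control 4 the SDF2L1 difference was 2.63 (adjusted p = 0.056), that of TMEM50B 2.49 (adjusted p = 0.072), that of MANF 1.66 (adjusted p = 0.20), that of TRA2B -1.55 (adjusted p = 0.34) and that of CRELD2 1.41 (adjusted p = 0.93). MANF, CRELD2 and TRA2B also lost the call without the phenformin array and without 2DG replicate 2, and CRELD2 and TRA2B without 2DG replicate 1 or 3, and CRELD2 without the buformin array.

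Against versipelostatin, which shares control 3 so that the control cancels, 23 genes were higher (0.201%) and 6 lower (0.0525%) with the biguanides (1889 at an unadjusted p under 0.05). The single versipelostatin array was assumed to vary like the others. The total of 29 was 191 without the metformin array, 216 without rotenone, 218 without antimycin A, 5 without buformin or phenformin, and 7 to 11 without any 1 of the arrays of 2DG alone or their controls. ER genes were again among the higher ones. HERPUD1 had a signal of 709 with versipelostatin against 3355 to 4822 with a biguanide and a difference of 2.42 (SE 0.28, adjusted p = 0.00576). HSP90B1 had 2766 against 7412 to 8152 and differed by 1.51 (SE 0.14, adjusted p = 0.00141), SDF2L1 had 319 against 1083 to 1289 and differed by 1.89 (adjusted p = 0.00141). XBP1 had 316 against 820 to 954 and differed by 1.45 (SE 0.20, adjusted p = 0.0211). IFRD1, a transcriptional coregulator, had 137 against 581 to 591 and differed by 2.04 (adjusted p = 0.0136). HSPA5, at 10097 with versipelostatin, differed by 0.44 (SE 0.13, adjusted p = 0.152). Among the lower genes were SIX4 at -2.44 (adjusted p = 0.0329) and EDEM3 at -1.35 (adjusted p = 0.0403). The XBP1, IFRD1, SIX4 and EDEM3 calls were lost without the buformin array and without the phenformin array, those of XBP1, SIX4 and EDEM3 also without 2DG replicate 1 or 2 or their controls, and those of SIX4 and EDEM3 without 2DG replicate 3 or its control. With no intensity trend HERPUD1 and these 4 genes lost the threshold (HERPUD1 adjusted p = 0.063).

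**Figure D4:**
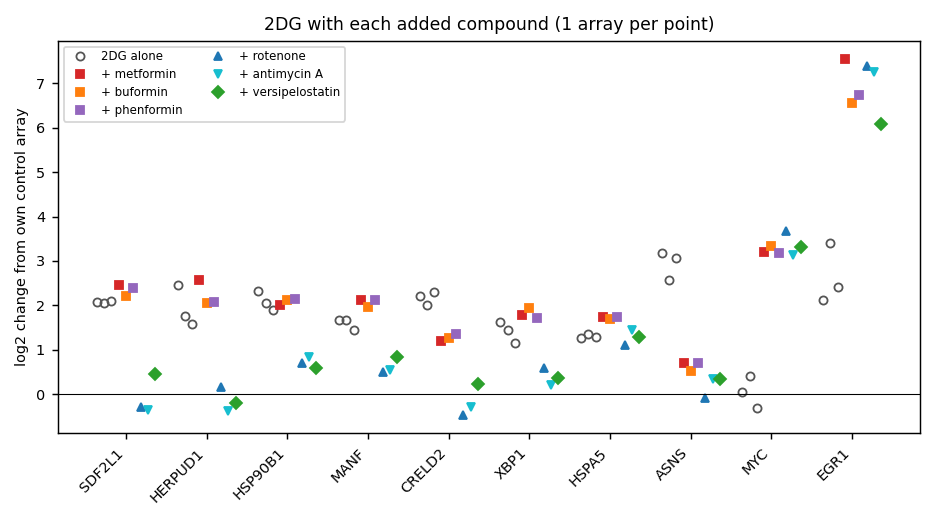
Log2 change from own control (y axis) of 10 genes, 1 point per array, with 2DG alone (open circles), 2DG with metformin, buformin or phenformin (squares) and 2DG with rotenone, antimycin A or versipelostatin (triangles and diamond). SDF2L1 is at -0.29, -0.35 and 0.45 with rotenone, antimycin A and versipelostatin and at 2.20 to 2.45 with the biguanides, while MYC is at 3.14 to 3.67 with all 6 agents.

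On the biguanide arrays many genes had probe sets that moved in opposite directions. Of 5789 genes with 2 or more probe sets past the filter, the fitted change from control was at least 2-fold up in 1 probe set and at least 2-fold down in another for 178 (3.07%) with a biguanide and 2DG, and for 1 (0.0173%) with 2DG alone. By array the count was 199 with metformin, 219 with buformin and 254 with phenformin, against 30, 11 and 9 with 2DG alone. Between 15 pairs of HT-1080 controls it was 9 to 33 (median 20). Versipelostatin gave 166, rotenone 97 and antimycin A 83. Outside the groups compared here, HT-1080 cells lacking mitochondrial DNA gave 105 with 2DG. Versipelostatin under glucose starvation gave 138 in HT-1080 and 209 in HT-29 colon cells. In 70 genes the same opposition held on each of the 3 biguanide arrays, and in none on each of the 3 arrays with 2DG alone. Against the mean of controls 2, 4 and 5 in place of control 3 the counts were 141, 163 and 179, and control 3 itself differed from that mean in this way in 7 genes.

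The 4 examples given here were chosen after their values were seen. MDM2, the ubiquitin ligase of p53, had a probe set at 36.2 on control 3 and at 394, 562 and 558 with metformin, buformin and phenformin (log2 changes 3.25, 3.76 and 3.75). Another MDM2 probe set changed by -2.81, -2.05 and -3.02. PHLDA1, a growth factor response gene, had a probe set that went from 531 to 2720, 3980 and 4070, and another that went from 1460 to 288, 453 and 437. For FOSL2, an AP-1 subunit, the changes were 1.48, 1.67 and 1.88 in a probe set and -4.07, -3.53 and -3.41 in another. TARDBP, the RNA-binding protein TDP-43, had changes of 3.48, 4.02 and 4.15 in a probe set at 13.7 on control 3, and of -1.19, -1.57 and -1.62 in one at 1550. A probe set reads a short stretch of a transcript, and which stretch each of these reads was not analysed here.

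**Figure D5:**
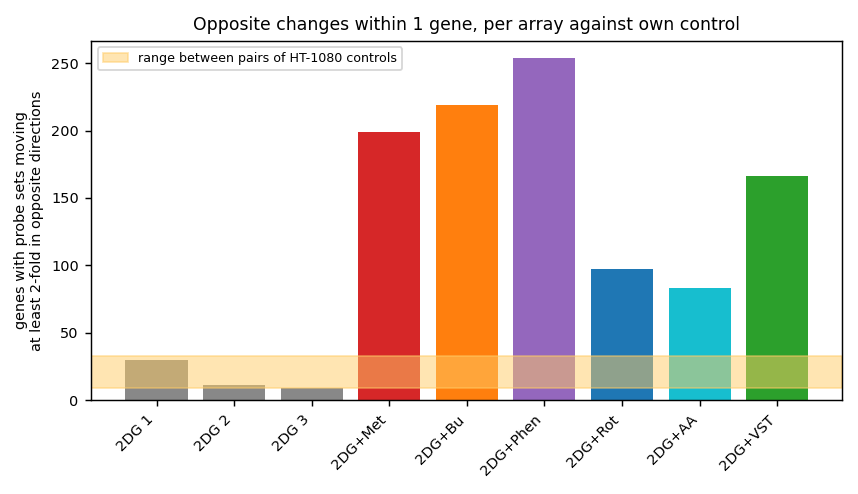
Number of genes (y axis, of 5789 with 2 or more probe sets) in which probe sets moved at least 2-fold in opposite directions from own control. Each bar is 1 array of HT-1080 cells that carried mitochondrial DNA and received 2DG, and the band marks the range between pairs of HT-1080 controls. The metformin, buformin and phenformin bars stand at 199, 219 and 254, and the bars of 2DG alone at 30, 11 and 9.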

How the data were processed

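Total RNA was labelled as biotinylated cRNA and hybridized to arrays, 1 per sample, per the labels' protocols. The deposited values are linear intensities made by the authors with MAS5, which the submitters' processing notes name. These notes give no further steps here, and the scaling of each array was set by the authors. For the comparisons, signals were brought to one 2% trimmed mean (114), 5% of it was added, and log2 was taken. Of 54675 probe sets, 232 with a missing value were left out, and 41097 carry 1 gene symbol. Probe sets at 40% of that mean or more on at least 2 of 38 arrays were kept (21441), and the brightest stood for its gene (11436 genes).

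The test was limma (version 3.58.1, under R 4.3.3), with a variance trend over intensity and p-values adjusted by Benjamini-Hochberg over all genes. The own control named in the sample descriptions was a fixed block, which pairs treated and control arrays. The direct comparisons with 2DG alone used 10 arrays (4 residual degrees of freedom) and those with other agents 13 (5). The 3 biguanides shared 1 coefficient, so the spread between compounds counts as error. The number of arrays limits the precision. SE is the limma standard error. A fold given against 2DG alone compares changes from own controls and is not the ratio of the printed signals. Members and lists were chosen with earlier results of these data known. Genes open to naming were a fixed list of stress genes, the 10 largest rises and 10 largest falls past the threshold and up to 4 members per list (5 each way against other agents), and the text gives some of them. On simulated data with the same arrays and blocks, 100 of 11436 genes were given a log2 difference of 2 and 100 a difference of 1. Between biguanides and 2DG alone 54% and 9% of these were recovered. For the other agents recovery was 62% and 11% (rotenone and antimycin A) and 79% and 33% (versipelostatin). Against 2DG alone 2786 genes were called in the data, far more than were changed in the simulation. Recovery depends on that share, so these values do not give the sensitivity there. Alternatives were other scalings, offsets and filters, the mean of all probe sets, no intensity trend, no block, all 38 arrays, and leaving out each array. Centring on the median of all genes, and dropping the block together with control 3, were added after seeing the data.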

Additional observations from a re-analysis of the deposited data

Results flagged for a closer look

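In 27 cases a value stood out. Among the 6 HT-1080 controls, 89 genes were searched with Dixon's test at its 95% critical value, and 9 had an array whose gap to its nearest neighbour took a large share of the range; chance gives about 1 in 20. Control 6 entered the pairs of controls and the fit of all 38 arrays, but none of the main comparisons. It was the highest array for ASNS (0.632), SLC3A2 (0.628), SESN2 (0.666), INHBE (0.689, at 365 against 8.64 to 33.8) and CEBPG (0.795). Control 5 was lowest for TIMM21 (0.636) and highest for PPARGC1B (0.682), control 1 was lowest for VEGFA (0.751), and control 3, the control of the biguanides, was lowest for LMO2 (0.746, at 1.32 against 21.7 to 37.8).

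The other 18 cases are differences between the biguanides and another agent under 2DG, by a test of the difference itself. Against rotenone and antimycin A they were SDF2L1 at 2.65, TMEM50B at 2.52, MANF at 1.58, CRELD2 at 1.58 and TRA2B at -1.46. Against versipelostatin they were HERPUD1 at 2.42, SDF2L1 at 1.89, HSP90B1 at 1.51, XBP1 at 1.45, IFRD1 at 2.04, SIX4 at -2.44, EDEM3 at -1.35, CTBP1-DT at -1.56, TIGD2 at -1.3, PPARGC1B at -1.77, IGFN1 at 2.45, LMO2 at 2.16 and TAOK2 at 1.91. IGFN1, LMO2 and TAOK2 had signals under 10 on the versipelostatin array (2.14, 4.37 and 5.87).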

How the results depend on the processing

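Leaving out 1 array at a time gave 2977 to 4592 called genes for biguanides against own control (3637 with all arrays), 430 to 2831 for 2DG alone (1679), 1603 to 3899 for biguanides against 2DG alone (2786), 0 to 52 against rotenone or antimycin A (5) and 5 to 218 against versipelostatin (29). Without control 3 and with the block, no biguanide change can be estimated. With no block and without control 3, 4768 genes were called against the controls. With no replicate block, 5179 genes were called against 2DG alone, 342 against rotenone or antimycin A and 60 against versipelostatin. With no intensity trend 2DG alone had 1038 calls. Against rotenone or antimycin A there were 8 calls with an offset of 1%, 3 with the mean of all probe sets, 2 with no intensity trend, 2 with all 38 arrays and 3 with centring. Against versipelostatin there were 19 with quantile normalization, 5 with the deposited scaling, 61 with the stricter filter, 15 with the mean of all probe sets, 11 with no intensity trend, 103 with all 38 arrays and 106 with centring. The cause of these shifts was not tested. Of 70 named genes called against 2DG alone 49 kept the call under every alternative and 65 under every left-out array; of 28 called against own control 25 and 28; of 5 against rotenone or antimycin A none kept it under all; of 13 against versipelostatin 2 did.

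Signs turned against 2DG alone, all without a call except CREB5, for HSPA5 (-0.057 quantile, -0.22 mean of all probe sets), HSP90B1 (-0.48 quantile, -0.36 deposited scaling, -0.098 to 0.115 leaving out arrays), SDF2L1 (-0.095 deposited scaling), HERPUD1 (-0.12 quantile, -0.064 deposited scaling), ATF4 (-0.25 quantile, -0.16 deposited scaling), CEBPG (-0.32 mean of all probe sets), SLC3A2 (0.10 centring) and CREB5 (-1.93 deposited scaling, -1.73 offset of 1%). Against own control they turned for DDIT4 (0.075 centring) and INHBE (0.36 centring, -0.074 to 0.00804 leaving out arrays, above 0 without buformin), neither called. List medians less that of all genes turned for UPR factors (-0.11 with no replicate block), NRF2 genes (-0.15 quantile) and autophagy (0.15 mean of all probe sets).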
